A study of Homo sapiens with 16 samples.

Results

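NT5DC2 was followed with its paralogues NT5DC1 and NT5DC3 through every library of a miR-137 transfection experiment in glioblastoma cells. The 3 genes were found by their symbols among the 20314 genes of the U251 count tables and the 20626 genes of the U343 count tables, and all 3 were present in every table. NT5DC2 was chosen by its measured RIPSeq change, a fall in PABP-bound RNA among the largest in both cell lines, so its RIPSeq change and every quantity built from it are given here as a description with no test. NT5DC1 and NT5DC3 were taken by family and not by their values. NT5DC4, a further family member, was not found by its symbol in the count tables.

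U251 and U343 are established human glioblastoma cell lines. Each was transfected for 48 hours with a miR-137 mimic or a negative control mimic, both at 25 nM, so that the control cells also carried a double-stranded small RNA and the transfection reagent. RNASeq measured total RNA and RIPSeq measured the RNA that came down with antibodies to the poly(A)-binding proteins (PABP). Both kinds of RNA were depleted of ribosomal RNA. With 2 libraries for each combination of line, assay and transfection there were 16 libraries in 8 groups. Complementary DNA was made from random hexamers in U251 and with the TotalScript kit in U343 before the same tagmentation method, so line and cDNA synthesis cannot be told apart. The labels do not say whether the 2 libraries of a group came from separate cultures, and the p-values below measure only the spread between them.

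The NT5DC genes encode proteins with a 5′-nucleotidase domain of the haloacid dehalogenase superfamily, the fold shared by the intracellular enzymes that remove phosphate from nucleotides. The enzymatic activity of the NT5DC proteins is little characterised. NT5DC2 has been described as a partner of tyrosine hydroxylase, which makes the precursor of dopamine, and as a gene that sustains the growth of glioma stem-like cells together with the kinase FYN. A microRNA guides Argonaute to messenger RNAs that pair with its seed, near its 5′ end, and the bound message loses its poly(A) tail, its translation and its stability, which is why release from PABP serves as a readout.

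The mature microRNA that the mimic stands for is shown because every comparison rests on it. It is written as RefSeq gives it, 5′ to 3′, with the seed (bases 2 to 8) in capitals.
hsa-miR-137-3p: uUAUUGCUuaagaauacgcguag
It has 23 bases and lies on the minus strand of chr1:98046091-98046113 in GRCh38.p14. A message with a full seed match would carry AGCAAUA. No other mature human microRNA in the RefSeq set used here had this seed. Transcript sequences of NT5DC2, NT5DC1 and NT5DC3 were not used here, so no target site is given for them.

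Positions of the genes are those of the deposited tables, in hg18. NT5DC2 spans chr3:52533425-52544133, a length of 10709 bases, of which 127 bases (1.19%) overlap the end of STAB1, a scavenger receptor gene on the other strand. NT5DC1 spans chr6:116528692-116673546 and holds the collagen gene COL10A1 within it. NT5DC3 spans chr12:102690211-102759105 and overlaps no gene of the tables; its nearest neighbours there include STAB2, the paralogue of STAB1, 5578 bases away. The counts were made per gene over joined isoforms, and whether strand was used is not given in the sources used here, so reads from the shared stretches cannot be assigned to either gene.

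Depth and library identity bear on all that follows. Total counts were 10156675 to 18224061 in U251 RNASeq, 22359794 to 30731476 in U251 RIPSeq, 37952273 to 45134766 in U343 RNASeq and 37736206 to 45055184 in U343 RIPSeq. At least 7 of 8 glial and glioma markers were detected at a level of 1 (CPM, counts per 1000000 reads) or more in every group, and of 5 markers of other cell types (leukocytes, monocytes, epithelium, endothelium and neurons) 0 to 2 were, with sums of 1.85 to 35.1 CPM against 5542 to 17497 CPM for the glial list. Of the libraries labelled miR137, 7 of 8 had a sum of 6098 to 8149 CPM for 6 interferon-stimulated genes (IFIT1, IFIT2, IFIT3, MX1, OAS1 and ISG15), whereas replicate 1 of U343 RNASeq had 81.3 CPM, within the 41.0 to 95.1 CPM of the 8 control libraries. That library stands apart, and changes called in U343 RNASeq are also given without it. Leaving it out keeps 1 miR137 library and takes the spread from the 2 controls. The p-values of single genes are then not printed. The 2 U251 RIPSeq control libraries differed widely from each other. Levels, ratios of levels and counts of called genes within gene lists that rest on them are given with both controls only. Their stability to the choice of control is not shown. Estimates of change for several single genes are also given from fits without each control. Such a fit of U251 RIPSeq alone keeps 1 control, whose spread is assumed to be that of the 2 close miR137 libraries, and it called many more genes: 35.3% lower and 32.8% higher without control replicate 1, and 34.2% and 40.2% without control replicate 2. The p-values that this fit gives single genes are not printed.

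NT5DC2 was abundant in PABP-bound RNA of control cells and low in both RNA fractions after miR-137 transfection. Levels are CPM after TMM scaling over all 16 libraries, a factor that sets the bulk of genes equal between libraries. In U251 RNASeq, NT5DC2 was at 90.8 and 107 CPM in the controls and at 20.4 and 24.9 CPM with miR-137. In U251 RIPSeq it was at 566 and 379 CPM in the controls and at 36.7 and 42.0 CPM with miR-137. Every miR-137 library lay below every control library of its experiment, and the gap was wider in the PABP-bound fraction.

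In U343 RNASeq, NT5DC2 was at 131 and 127 CPM in the controls and at 25.5 and 15.4 CPM with miR-137. In U343 RIPSeq it was at 223 and 282 CPM in the controls and at 15.6 and 21.4 CPM with miR-137. Again the groups did not overlap in either assay. The counts behind these levels ran from 246 reads in a U251 RNASeq library with miR-137 to 13476 reads in a U251 RIPSeq control. In bulk RNA, fewer cells with the transcript and less transcript per cell cannot be told apart.

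**Figure D1:**
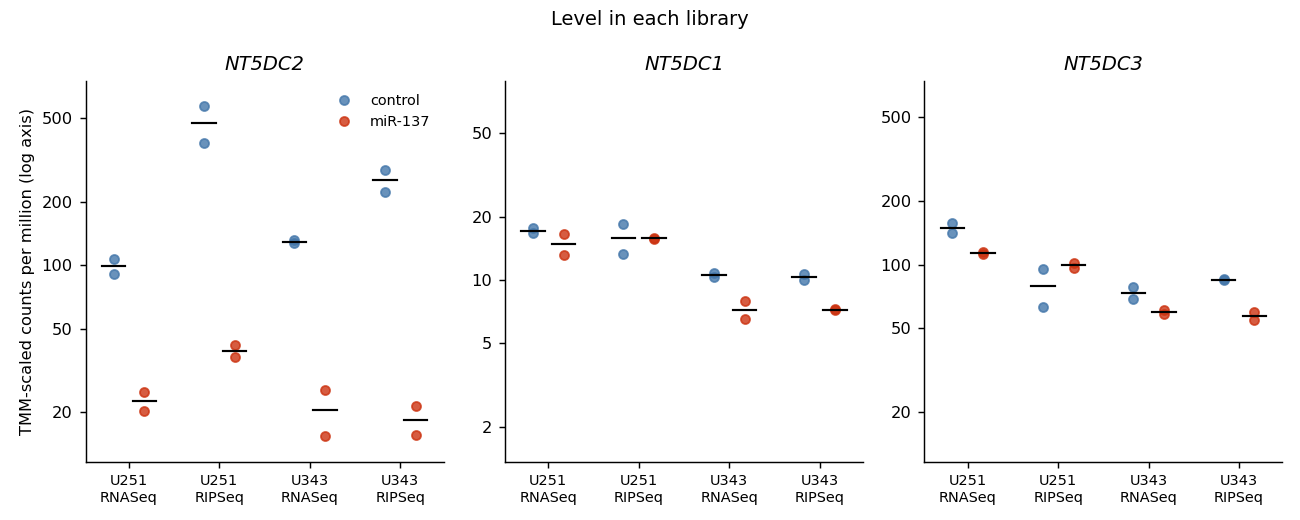
Level of NT5DC2, NT5DC1 and NT5DC3 in each library (points; TMM-scaled CPM on a log axis of the same fold span in each panel) by cell line and assay, with the mean of the 2 libraries of a group as a bar; blue is control and red is miR-137. NT5DC2 is lower with miR-137 in all 4 experiments, from a mean of 472 to 39.3 CPM in U251 RIPSeq, while the other 2 genes move little.

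Ordered by mean level, the groups of NT5DC2 ran from U251 RIPSeq control (472 ± 133 CPM, SD, n = 2) through U343 RIPSeq control (253 ± 42.0), U343 RNASeq control (129 ± 2.67) and U251 RNASeq control (99.0 ± 11.6) to U251 RIPSeq with miR-137 (39.3 ± 3.74), U251 RNASeq with miR-137 (22.7 ± 3.20), U343 RNASeq with miR-137 (20.5 ± 7.14) and U343 RIPSeq with miR-137 (18.5 ± 4.14). Neighbours in this order did not overlap among the first 6 groups, and the lowest 3 groups overlapped with the next in order. All 4 control groups therefore lay above all 4 miR-137 groups.

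In total RNA NT5DC2 fell in both lines. The choice of the gene did not use these values, but PABP-bound RNA is part of total RNA. A choice by a RIPSeq fall can favour genes that fell in total RNA. The total RNA p-values of NT5DC2 take no account of that. The log2 fold change in U251 RNASeq was -2.08 (SE 0.15, 95% confidence interval -2.41 to -1.76; edgeR quasi-likelihood test with Benjamini-Hochberg adjustment over all genes, adjusted p = 1.2e-07), and the level with miR-137 was 22.9% of the control level. In that experiment 29.0% of the genes tested were called lower at an adjusted p under 0.05, so the call alone does not set NT5DC2 apart, and its rank by size was 113 among the 10814 genes that averaged 50 or more control reads. Glial and glioma markers moved in the same experiment. Their summed level was 11879 to 12158 CPM in controls and 5542 to 5932 CPM with miR-137. Of the 8 markers, 5 were called lower, with GFAP at -3.18, S100B at -2.92, NES at -1.25, VIM at -1.19 and CD44 at -0.79. S100B had 27 and 29 reads in controls and 2 and 3 with miR-137. SOX9 was called higher, at 0.33, and SOX2 at -0.04 and SLC1A3 at -0.07 were not called. The part of the glial and glioma markers in the result was not tested. In U343 RNASeq the summed level was 11773 to 12621 CPM in controls and 12642 to 14204 CPM with miR-137. There 0 of 8 markers were called lower and 2 higher, against 11.7% and 8.31% of all genes. The 2 were NES at 1.58 and CD44 at 0.61, or 1.46 and 0.69 without miR137 replicate 1 of U343 RNASeq. When 1 library was left out, the change of NT5DC2 in U251 RNASeq stayed between -2.22 and -1.96, and across all 11 other settings its adjusted p ranged from 1.5e-30 to 0.0029.

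In U343 RNASeq the log2 fold change of NT5DC2 was -2.68 (SE 0.26, 95% confidence interval -3.37 to -1.99, edgeR adjusted p = 0.0091), with 15.9% of the control level left, against a background of 11.7% of genes called lower. It ranked 10 of 12817 genes by size, between KLF15 and SLC25A5. Without miR137 replicate 1, the library with control-like interferon genes, the change was -3.07, at rank 6. Without miR137 replicate 2 it was -2.37, at rank 40. The spread in these 2 fits came from the controls alone. In edgeR, leaving out control replicate 1 gave -2.65 (adjusted p = 0.15) and leaving out control replicate 2 gave -2.70 (adjusted p = 0.17). In these fits 0 genes were called in edgeR, with 2776 and 2675 genes at an unadjusted p under 0.05, and the spread then came from the 2 miR137 libraries alone. DESeq2, run on all 4 libraries, gave NT5DC2 at -2.68 (adjusted p = 1.4e-21).

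The library that stands apart thus carried a low NT5DC2 level without the interferon genes. Its 25.5 CPM was 19.8% of the U343 RNASeq control mean, against 11.9% in the other miR-137 library, and 20.6% and 25.2% in the U251 RNASeq libraries with miR-137, where the interferon sum was 6348 and 6518 CPM. A low NT5DC2 level was seen both with and without high interferon-stimulated genes, the latter in a single library. The relation of NT5DC2 to these genes was not tested.

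**Figure D2:**
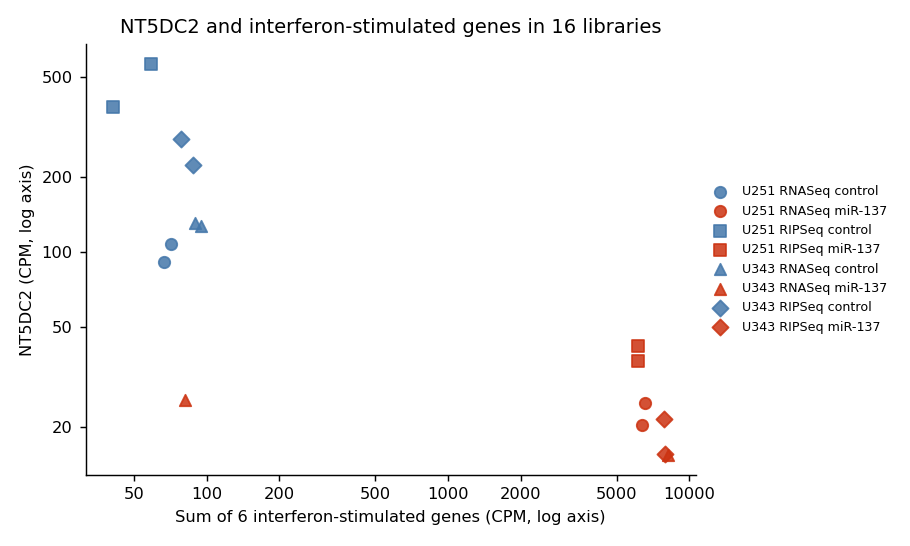
NT5DC2 level (CPM, log axis) against the summed level of 6 interferon-stimulated genes (CPM, log axis) in each of the 16 libraries; colour marks the transfection and shape the line and assay. The 8 control libraries lie at the upper left, 7 miR-137 libraries at the lower right, and 1 U343 RNASeq miR-137 library at the lower left, at 25.5 CPM of NT5DC2 and 81.3 CPM of interferon-stimulated genes.

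The fall of NT5DC2 in total RNA was estimated as larger in U343 than in U251, and with all libraries the difference did not pass its test. The interaction of line and transfection was -0.60 (SE 0.31, 95% confidence interval -1.30 to 0.10, edgeR adjusted p = 0.19), where the same test called 12.7% of genes lower and 12.5% higher. With 1 library left out it was -0.99 without U343 RNASeq miR137 replicate 1 and -0.29 without U343 RNASeq miR137 replicate 2. It was -0.39 without U251 RNASeq miR137 replicate 2, so its size moved with single libraries.

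In PABP-bound RNA, the contrast by which NT5DC2 was chosen, the level with miR-137 was 8.32% of the control level in U251 and 7.32% in U343. The edgeR estimates were -3.62 (SE 0.33) in U251 RIPSeq and -3.77 (SE 0.19) in U343 RIPSeq. Among genes that averaged 50 or more control reads, this was rank 1 of 11291 in U251, just ahead of ACTBL2 at -3.56, and rank 3 of 12518 in U343, between CXCL14 at -3.78 and HIST1H4L at -3.72. Without U251 RIPSeq control replicate 1 the U251 estimate was -3.26, at rank 9, and without control replicate 2 it was -3.81, at rank 2.

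**Figure D3:**
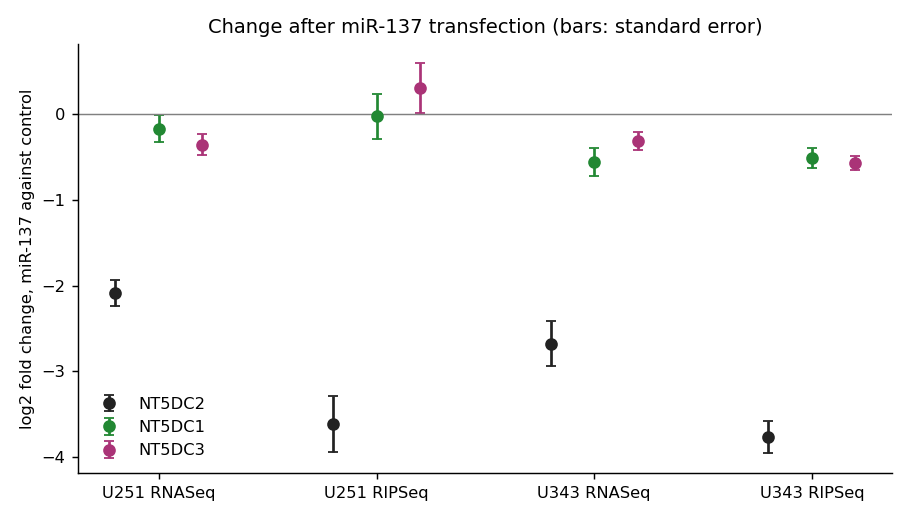
Log2 fold change with miR-137 against control for NT5DC2, NT5DC1 and NT5DC3 in the 4 experiments; points are edgeR estimates and bars their standard errors. NT5DC2 lies between -3.77 and -2.08, whereas no estimate of NT5DC1 or NT5DC3 lies below -0.57.

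By the study's own rule, a Fisher's exact test in each of the 4 pairings of a control with a miR-137 library that must reach an adjusted p below 0.001 with odds above 2 in every pairing, NT5DC2 was lower in both RNASeq experiments. The odds ratios of control against miR-137 were 2.98 to 4.19 over the U251 RNASeq pairs and 5.02 to 9.00 over the U343 RNASeq pairs. In RIPSeq, where passing was fixed by the choice of the gene, they were 8.04 to 16.2 in U251 and 9.97 to 18.9 in U343, as a description. The rule called 2.21% of genes lower in U251 RNASeq, 1.49% in U251 RIPSeq, 2.88% in U343 RNASeq and 3.40% in U343 RIPSeq. NT5DC1 and NT5DC3 passed in 0 of 4 pairs in each experiment. Replicate spread does not enter this rule, which sets single libraries against each other.

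The RIPSeq level of NT5DC2 stood above its RNASeq level in controls and came closer to it after transfection. The ratio of mean levels, RIPSeq over RNASeq, was 4.77 in U251 controls, with 3.53 to 6.24 over the 4 pairings of a RIPSeq with an RNASeq library, and 1.73 (1.47 to 2.05) with miR-137. In U343 it was 1.96 (1.70 to 2.22) in controls and 0.904 (0.611 to 1.39) with miR-137. The ranges for control and miR-137 did not overlap in either line. The change in RIPSeq exceeded that in RNASeq by -1.59 log2 units (SE 0.38) in U251 and by -1.09 (SE 0.35) in U343. It was -1.12 and -1.79 in U251 without RIPSeq control replicate 1 and 2, and -0.70 in U343 without RNASeq miR137 replicate 1. These ratios are relative to the other genes of each assay and carry no test, since the RIPSeq contrast chose the gene.

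**Figure D4:**
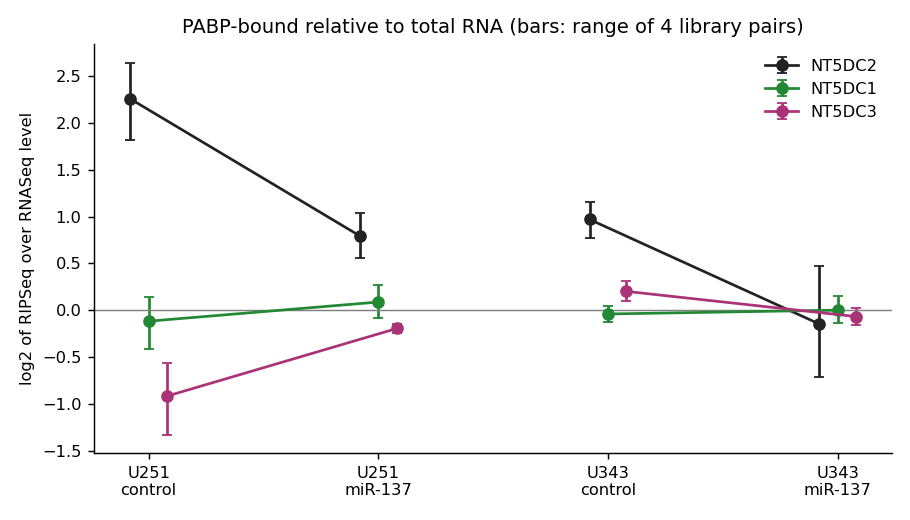
Log2 of the RIPSeq over the RNASeq level of each gene in control and miR-137 cells of both lines; points are ratios of mean levels and bars the range over the 4 pairings of libraries. NT5DC2 goes from 2.25 to 0.79 in U251 and from 0.97 to -0.15 in U343, while NT5DC1 stays between -0.12 and 0.09.

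Control levels of NT5DC2 also differed between the lines in an opposite sense by assay. The U343 mean was 1.30 times the U251 mean in RNASeq and 0.535 times in RIPSeq. After miR-137 the ratio was 0.902 in RNASeq and 0.471 in RIPSeq. Line and cDNA synthesis changed together here, and these ratios are descriptions.

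NT5DC1, the first paralogue, was little changed in U251 and lower with miR-137 in U343 PABP-bound RNA. It was at 17.6 and 16.7 CPM in U251 RNASeq controls and 13.1 and 16.5 CPM with miR-137, for a log2 change of -0.17 (SE 0.16, edgeR adjusted p = 0.38). In U251 RIPSeq it was at 13.3 and 18.4 CPM in controls and 15.9 and 15.7 CPM with miR-137, where the miR-137 libraries fell between the controls. That change was -0.03 (SE 0.27, 95% confidence interval -0.73 to 0.68, adjusted p = 0.97). With control replicate 1 left out it was -0.22, and with control replicate 2 left out 0.28, so its direction turned on which control was kept.

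In U343, every NT5DC1 level with miR-137 lay below the control levels. RNASeq gave 10.3 and 10.8 CPM in controls against 6.55 and 7.91 CPM with miR-137, and a log2 fold change of -0.56 (SE 0.17) that missed the threshold (edgeR adjusted p = 0.086). It was -0.42 without miR137 replicate 1 and -0.72 without miR137 replicate 2. RIPSeq gave 10.6 and 9.94 CPM in controls against 7.27 and 7.22 CPM with miR-137, a fall of -0.51 (SE 0.12, adjusted p = 0.0075) that missed the threshold without control replicate 1 (-0.47, adjusted p = 0.051). COL10A1, which lies inside NT5DC1 and encodes a cartilage collagen, was called in U251 RNASeq only, at 1.00 (adjusted p = 0.0048).

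NT5DC3, the other paralogue, fell in U251 RNASeq and in U343 RIPSeq by less than 1 log2 unit. It was at 158 and 141 CPM in U251 RNASeq controls and at 115 and 112 CPM with miR-137, with a log2 fold change of -0.35 (SE 0.13, edgeR adjusted p = 0.027). This call depended on the scaling, at -0.22 with upper-quartile normalization (adjusted p = 0.16) and -0.092 with plain library totals (adjusted p = 0.54), and on the libraries, at -0.29 without control replicate 1 (adjusted p = 0.22), -0.43 without control replicate 2 (adjusted p = 0.062) and -0.32 without miR137 replicate 2 (adjusted p = 0.060). In U251 RIPSeq the direction was the other way, with 63.0 and 95.8 CPM in controls and 102 and 96.9 CPM with miR-137. The change of 0.30 (SE 0.29, adjusted p = 0.61) was 0.053 once control replicate 1 was left out and 0.69 once control replicate 2 was.

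In U343 RIPSeq, NT5DC3 was at 84.5 and 85.3 CPM in controls and 54.8 and 59.7 CPM with miR-137. The groups lay far apart relative to the spread within them. Its log2 fold change was -0.57 (SE 0.08, edgeR adjusted p = 0.00084), and it stayed between -0.64 and -0.50 with any 1 library left out. In U343 RNASeq it was at 68.7 and 78.8 CPM in controls and 61.2 and 58.6 CPM with miR-137. The change was -0.32 (SE 0.11, adjusted p = 0.11), and -0.34 without miR137 replicate 1. Both paralogues were thus called lower in U343 RIPSeq, where 27.8% of all genes tested were called lower, and neither was called in U343 RNASeq or U251 RIPSeq.

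For the paralogues the difference between lines and between assays could be tested. The interaction of line and transfection was -0.40 for NT5DC1 in RNASeq (SE 0.24, edgeR adjusted p = 0.27) and -0.43 in RIPSeq (SE 0.27, adjusted p = 0.43). For NT5DC3 it was 0.03 in RNASeq (SE 0.17, adjusted p = 0.92) and -0.82 in RIPSeq (SE 0.28, adjusted p = 0.16). The estimates in RIPSeq moved with the U251 controls. The NT5DC3 value became -0.59 without U251 control replicate 1 and -1.16 without U251 control replicate 2. The NT5DC1 value became -0.69 without U251 control replicate 2. These fits keep 1 U251 control, and their p-values are not printed. None of these 4 interactions passed with all libraries, where 1.22% of all genes passed downward and 2.06% upward in RIPSeq.

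The RIPSeq level of NT5DC1 relative to its RNASeq level in controls was close to that of the bulk of genes, at -0.03 log2 units in U251 (SE 0.31, 95% confidence interval -0.76 to 0.70, edgeR adjusted p = 0.95) and -0.01 in U343 (SE 0.11, 95% confidence interval -0.26 to 0.24, adjusted p = 0.97). NT5DC3 was at -0.83 in U251 (SE 0.34, adjusted p = 0.13) and 0.23 in U343 (SE 0.09, adjusted p = 0.058). Neither paralogue passed this test with all libraries, where 6.14% of genes were called lower and 7.87% higher in U251, and 24.2% lower and 24.4% higher in U343. With a U251 RIPSeq control left out, the U251 value of NT5DC3 was -0.61 or -1.17. With U343 RNASeq control replicate 2 left out, the U343 value of NT5DC3 was 0.34. The same estimate for NT5DC2 was 2.36 (SE 0.38) in U251, or 1.97 and 2.59 without RIPSeq control replicate 1 and 2, and 1.00 (SE 0.12) in U343, as a description. For NT5DC1 and NT5DC3 the assays could also be compared for the change itself, a test that called 0.0281% of genes lower and 0.106% higher in U251 and 0.00649% higher in U343. The change with miR-137 differed between RIPSeq and RNASeq by 0.10 for NT5DC1 in U251 (SE 0.29, adjusted p = 0.86) and 0.05 in U343 (SE 0.20, adjusted p = 0.91). For NT5DC3 it differed by 0.62 in U251 (SE 0.31, adjusted p = 0.31), or by 0.99 without RIPSeq control replicate 2. In U343 the difference for NT5DC3 was -0.25 (SE 0.13, adjusted p = 0.37).

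The 8 genes of 5′-nucleotidases proper moved in both directions. In U251 RNASeq 7 were tested, of which 1 was lower and 2 were higher, and their median log2 fold change was 0.19, against 0.02 over all genes tested, of which 29.0% were called lower and 28.7% higher. In U251 RIPSeq, with both controls kept, 0 of 6 were lower and 1 was higher, against 0.263% and 0.944% of all genes. In U343 RNASeq 1 of 6 was lower and 0 were higher, against 11.7% and 8.31% of all genes. Without miR137 replicate 1 it was 1 lower and 3 higher of 7, against 20.3% and 19.3%. In U343 RIPSeq 3 of 7 were lower and 3 were higher, against 27.8% and 28.5% of all genes. None of the tested members of this list had an estimate as low as that of NT5DC2 in either RNASeq experiment. The same held in RIPSeq, where it follows from the choice of NT5DC2 and is a description.

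NT5E (CD73), the surface enzyme that makes adenosine from AMP, had the largest rise of the list in U251. It was at 39.7 and 43.9 CPM in U251 RNASeq controls and 435 and 376 CPM with miR-137, for a log2 change of 3.32 (SE 0.15, edgeR adjusted p = 1.3e-09), and it rose by 3.48 in U251 RIPSeq (SE 0.35, adjusted p = 0.035; 3.15 without control replicate 1 and 3.99 without control replicate 2). In U343 it was barely detected, with 2 to 5 reads in each control library, and its change of 2.41 in U343 RIPSeq (adjusted p = 0.012) rested on 11 and 24 reads with miR-137. Within U251, NT5E and NT5DC2 thus moved in opposite directions in total RNA.

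NT5C3, a cytosolic pyrimidine nucleotidase that interferon is known to induce, rose by 1.71 in U251 RNASeq (SE 0.16, edgeR adjusted p = 1.2e-06) and by 2.76 in U343 RIPSeq (SE 0.10, adjusted p = 1.3e-06). In U343 RNASeq it was at 26.6 and 26.9 CPM in controls and at 30.0 and 197 CPM with miR-137, so that the library with control-like interferon genes also had a control-like level of NT5C3. NT5DC2 was low in both of these libraries. NT5C2, the cytosolic purine nucleotidase whose protein is close to the NT5DC family, rose by 1.17 in U343 RIPSeq (edgeR adjusted p = 3.9e-05). In U251 RIPSeq it was at 1.25 (adjusted p = 0.15), or 0.94 and 1.73 without control replicate 1 and 2. In U343 RNASeq it was at 0.57 (adjusted p = 0.086), or 0.76 without miR137 replicate 1. In U251 RNASeq it was at 0.21 (adjusted p = 0.17).

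NT5C3L, related to NT5C3, fell by 0.74 on the log2 scale in U251 RNASeq (edgeR adjusted p = 0.0020) and by 0.55 in U343 RIPSeq (adjusted p = 0.00090). NT5M, the mitochondrial deoxyribonucleotidase, fell by 0.86 in U343 RNASeq (adjusted p = 0.046, and -1.04 without miR137 replicate 1) and by 0.83 in U343 RIPSeq (adjusted p = 0.0024). NT5C, its cytosolic counterpart, fell by 0.27 in U343 RIPSeq (adjusted p = 0.033) and was not called elsewhere. These falls were of the size of those of NT5DC1 and NT5DC3 rather than of NT5DC2.

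**Figure D5:**
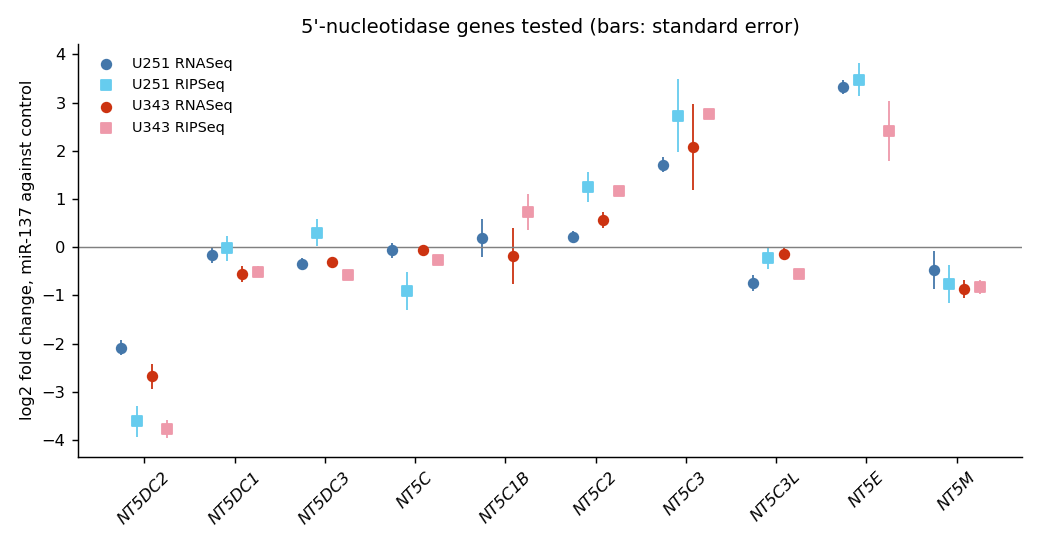
Log2 fold change with miR-137 against control for NT5DC2, its 2 paralogues and the 5′-nucleotidase genes tested; points are edgeR estimates for the 4 experiments and bars their standard errors. NT5DC2 is the lowest in each experiment, from -3.77 to -2.08, and NT5E and NT5C3 lie at the top. The place of NT5DC2 in RIPSeq follows from the choice of the gene.

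With all libraries, kinases that act opposite to nucleotidases, by adding phosphate to nucleosides, were lower or not called. In U251 RNASeq 3 of 7 were lower, against 29.0% of all genes tested, in U343 RNASeq 3 of 8 against 11.7%, in U343 RIPSeq 4 of 8 against 27.8%, and in U251 RIPSeq 0 of 7 against 0.263%. In these 4 experiments 0 were higher. Single estimates in U251 RIPSeq turned on the control kept. DCK was at -0.60 without control replicate 1 and at 1.62 without control replicate 2. For ADK these values were -0.05 and 0.89, whereas for UCK1 they were -0.64 and -0.69. Without miR137 replicate 1, 4 of 8 were lower in U343 RNASeq, against 20.3%. TK1, the thymidine kinase of dividing cells, fell by 0.57 in U251 RNASeq (edgeR adjusted p = 0.0038). It fell by 1.04 in U343 RNASeq (adjusted p = 0.0086, and -1.10 without miR137 replicate 1) and by 1.25 in U343 RIPSeq (adjusted p = 4.1e-05). Of the 4 nucleoside-degrading enzymes tested, TYMP, the thymidine phosphorylase, rose by 2.35 in U251 RNASeq (adjusted p = 4.3e-05), PNP by 0.45 (adjusted p = 0.0096), UPP1 fell by 1.08 (adjusted p = 1.4e-05) and ADA fell by 0.56 (adjusted p = 0.043). These are 2 of 4 higher and 2 of 4 lower, where 28.7% and 29.0% of all genes were so called. In U343 RIPSeq TYMP and PNP were higher and 0 of 4 were lower, against 28.5% and 27.8%, and in U251 RIPSeq and U343 RNASeq 0 of 4 were called. Without miR137 replicate 1, 1 of 4 was higher in U343 RNASeq, against 19.3%.

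FYN, the kinase named with NT5DC2 in glioma, was higher with miR-137 in U343, where NT5DC2 was lower. It was at 50.4 and 45.7 CPM in U343 RNASeq controls and 111 and 108 CPM with miR-137. The log2 change was 1.17 (SE 0.10, edgeR adjusted p = 0.0075, and 1.16 without miR137 replicate 1), and 1.16 in RIPSeq (SE 0.08, adjusted p = 2.0e-05). EGFR, the receptor that NT5DC2 has been reported to stabilise in liver cancer cells, fell in U343. The fall was 1.16 in RNASeq (adjusted p = 0.014, and -1.03 without miR137 replicate 1) and 1.47 in RIPSeq (adjusted p = 1.2e-05). Of all genes, 8.31% were called higher and 11.7% lower in U343 RNASeq, and 28.5% and 27.8% in U343 RIPSeq. In U251 RNASeq FYN was at 0.27 (adjusted p = 0.10) and EGFR at -0.25 (adjusted p = 0.15), neither of them called. In U251 RIPSeq FYN was at 0.43 (adjusted p = 0.37), or 0.50 and 0.45 without control replicate 1 and 2. EGFR was there at -0.66 (adjusted p = 0.39), or -1.05 and -0.05 without these controls. Of 5 catecholamine synthesis genes, tyrosine hydroxylase (TH) among them, only GCH1, which makes the cofactor of that enzyme, had enough reads to be tested. It fell by 0.73 in U251 RNASeq (adjusted p = 0.0033) and rose by 1.35 in U343 RIPSeq (adjusted p = 2.5e-05). In U251 RIPSeq it was at 0.77 (adjusted p = 0.48), or 0.22 and 1.76 without control replicate 1 and 2. In U343 RNASeq it was at 6.11 CPM in the miR-137 library with control-like interferon genes and at 30.3 CPM in the other.

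STAB1, which shares 127 bases with NT5DC2, moved with it in U343. It was at 4.64 and 5.46 CPM in U343 RNASeq controls and at 0.782 and 1.29 CPM with miR-137. The log2 change was -2.29 (SE 0.31, edgeR adjusted p = 0.016, and -1.98 without miR137 replicate 1), and -2.96 in U343 RIPSeq (SE 0.21, adjusted p = 2.7e-05). Its reads were few beside those of NT5DC2, at 29 to 299 reads or 2.76 to 8.35% of the NT5DC2 count in a U343 library, and 1 to 43 reads or 0.0193 to 1.63% in a U251 library. Whether STAB1 reads come from the shared bases was not tested. NT5DC2 had 6 neighbours within 100000 bases, STAB1 among them. LOC440957 fell by 0.33 in U343 RIPSeq (edgeR adjusted p = 0.040) and NISCH rose by 1.09 in U251 RNASeq (adjusted p = 0.00011). With STAB1, 2 of 5 tested neighbours were lower in U343 RIPSeq, against 27.8% of all genes. In U343 RNASeq 1 of 5 was lower, against 11.7%. In U251 RNASeq 1 of 3 was higher, against 28.7%, and in U251 RIPSeq 0 of 5 were called. SEMA3G, TNNC1 and PBRM1 were not called in any experiment that tested them.

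The genes whose pattern was most like that of NT5DC2 were ESRRA, SLC25A10, SHMT1, CALM3 and FAM98A. Likeness was the Pearson correlation of log2 levels over the 16 libraries after each experiment was centred on its own mean, among 9000 genes with at least 5 CPM in every control group. The r values were 0.994, 0.9895, 0.9843, 0.983 and 0.9816, against a median of 0.0577 over all genes, and 356 genes had r over 0.9. The points share their libraries and the contrast of transfection, so the values describe the common order of libraries. ESRRA is the estrogen-related receptor alpha, which controls genes of mitochondrial energy metabolism. Its estimates were -1.52 in U251 RNASeq, -2.54 in U251 RIPSeq, -2.12 in U343 RNASeq and -2.75 in U343 RIPSeq. Each was smaller in size than that of NT5DC2, with RIPSeq again beyond RNASeq. The choice by likeness favours that order, since the RIPSeq libraries entered it. SHMT1 had -0.42, -0.88, -0.69 and -0.68 in the same experiments, so its U343 values lacked that order. CALM3, a calmodulin gene, had -1.73, -2.40, -2.20 and -2.30. Without U251 RIPSeq control replicate 1 and 2, the U251 RIPSeq estimate was -2.21 and -2.73 for ESRRA. For CALM3 it was -2.31 and -2.39. NT5DC1 had an r of 0.6496 and stood at place 1828 in this order, and NT5DC3 had 0.4127 and stood at place 3053.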

How the data were processed

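The deposited values are raw read counts per gene, made by the authors with the aligner RMAP on hg18 over RefSeq genes whose isoforms were joined. Reads that map to several genes, and read strand, are treated in a way not given in the sources used here. cDNA was made with random hexamers and EpiScript in U251 and with the TotalScript kit in U343, and both were tagmented with Nextera kits. The members, lists and tests were chosen with earlier results of these data known. The gene lists, the neighbours within 100000 bases, the 5 likest genes and the genes next to NT5DC2 in rank were named by fixed rules.

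Groups came from the sample titles. Each experiment was fitted alone in edgeR 4.0.16 (R 4.3.3) with TMM factors, its expression filter, the quasi-likelihood test and a threshold of 0.05 on the adjusted p. Differences between lines or assays were interaction terms in joint fits of 8 libraries. The study's rule was recomputed with SciPy 1.17.1 (two-sided Fisher's exact test). Levels were CPM scaled over 16 libraries, with no correction for gene length, so levels are not compared between genes. The alternatives were DESeq2 1.42.0, upper-quartile scaling, plain totals, 2 other filters, a replicate block, a joint fit and each library left out. Genes and lists other than the 3 members were refitted without U343 RNASeq miR137 replicates and U251 RIPSeq controls, a choice made after seeing the data. The fits were tested on simulated data.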

Additional observations from a re-analysis of the deposited data

How the results depend on the processing

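The RIPSeq estimates of NT5DC2 ran over 11 alternatives from -3.81 to -3.26 in U251 and from -4.03 to -3.56 in U343. NT5DC2 in U251 RNASeq kept its direction and its call under all 11 alternatives. In U343 RNASeq it kept its direction under all 11 and lost its call without either control library, with values from -3.07 to -2.37 when 1 library was left out; its difference between the lines was then -0.99 to -0.29. NT5DC1 ran from -0.22 to 0.28 in U251 RIPSeq, the sign turning to 0.28 without control replicate 2, from -0.72 to -0.42 in U343 RNASeq, from -0.56 to -0.47 in U343 RIPSeq and, for its difference between the lines in RIPSeq, from -0.69 to -0.26. NT5DC3 ran from -0.43 to -0.29 in U251 RNASeq and from 0.053 to 0.69 in U251 RIPSeq; its difference between the lines in RIPSeq ran from -1.16 to -0.59, its difference between the assays in U251 from 0.47 to 0.99, and its PABP-bound against total RNA in controls from -1.17 to -0.61 in U251 and from 0.14 to 0.34 in U343.

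NT5DC1 in U343 RNASeq passed the threshold in DESeq2 (-0.56) and in the joint fit of a line (-0.58), as did NT5DC3 there in the joint fit (-0.33). NT5DC3 in U251 RNASeq lost its call with upper-quartile scaling (-0.22), plain totals (-0.092), at least 50 reads on average (-0.28) and the joint fit (-0.34). Upper-quartile scaling moved the median of all genes in U251 RNASeq from 0.02 to 0.16, and plain totals moved it to 0.28.

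Genes called lower in U251 RNASeq were 2458 with plain totals, where 5432 were higher, and 1336 in the joint fit, where 1615 were higher. In U251 RIPSeq, lower and higher counts were 534 and 589 in DESeq2, 5 and 54 without the filter and 1213 and 1142 in the joint fit, and with 1 library left out 8 to 5366 and 133 to 6304. In U343 RNASeq they were 2768 and 2265 in the joint fit, 1963 were higher in DESeq2, and with 1 library left out 0 to 3152 were lower and 0 to 2994 higher. The study's rule called 1024, 745, 1321 and 1677 genes lower with an odds ratio over 1.5 (U251 RNASeq, U251 RIPSeq, U343 RNASeq, U343 RIPSeq), 793 in U251 RNASeq with totals scaled by TMM factors, and 344 to 1372 in U251 RIPSeq with 1 library left out. The cause of these shifts was not tested, beyond fewer libraries where 1 was left out.

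Libraries of different groups share a replicate number only. The correlation of same-numbered deviations from the group means was 0.033 in U251 RNASeq, 0.036 in U251 RIPSeq, 0.139 in U343 RNASeq and 0.279 in U343 RIPSeq. With replicate number as a block, NT5DC2 was at -2.08 in U251 RNASeq (edgeR adjusted p = 1.4e-05) and -2.72 in U343 RNASeq (adjusted p = 0.015), no call of the 3 genes changed, and the U251 RIPSeq counts became 273 lower and 529 higher. A low count limits NT5DC1 most, at 158 to 504 reads per library.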
